A study of Mus musculus with 3 samples.

Results

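The members are 10 genes of the VEGF and angiopoietin systems, taken as the rows of the deposited count matrices that carry the symbols Vegfa, Vegfc, Pgf, Angpt2, Kdr, Flt1, Flt4, Tek, Tie1 and Ptprb. They are 10 of 41605 gene rows, and each symbol matched a single row. The counts came from single endothelial cells of mouse gastrocnemius, a calf muscle, of strain C57BL/6N, sorted as CD31+, CD45- and SYTOX blue- (a dye that enters dead cells). There were 3 libraries with 1 library per group. The running group was single-housed with a wheel for 14 days of voluntary running. The untreated group was labelled as given no treatment, with no statement of housing, and the sedentary group was labelled as single-housed and sedentary. The number of animals behind each library is not given in the sources used here, and no group has a replicate. No test between groups was therefore made, and every interval below covers counting error only.

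Vascular endothelial growth factors are secreted ligands that bind receptor tyrosine kinases on endothelial cells. VEGF-A signals mainly through VEGFR2, encoded by Kdr, while VEGFR1, encoded by Flt1, binds VEGF-A and PlGF tightly and can act as a trap, and VEGFR3, encoded by Flt4, binds VEGF-C and is best known from lymphatic vessels. The angiopoietins bind TIE2, encoded by Tek, which works together with the related receptor TIE1, and the phosphatase VE-PTP, encoded by Ptprb, removes phosphate from TIE2. In skeletal muscle, VEGF-A made by the muscle fibres is known to be needed for capillary growth during training.

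The upstream sequences of 4 members are shown because the results turn on these genes. Kdr and Vegfc separate the vessel classes, and Flt1 was highest in the untreated library in each blood vessel class. Tek has the largest difference between the running and sedentary libraries among the receptors. The windows are the 250 bases before the annotated start in RefSeq on GRCm38.p6, and 8 of 10 members had an entry, Angpt2 and Ptprb being those without. Capitals mark an ETS core, AGGAA or TTCCT, and a GC box, GGGCGG or CCGCCC, searched on both strands.
Kdr (chr5:75978456-75978705, minus strand): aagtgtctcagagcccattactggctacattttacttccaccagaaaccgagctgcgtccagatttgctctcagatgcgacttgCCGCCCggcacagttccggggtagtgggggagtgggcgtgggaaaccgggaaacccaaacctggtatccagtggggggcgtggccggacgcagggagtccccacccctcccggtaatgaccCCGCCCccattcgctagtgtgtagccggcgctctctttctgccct
Flt1 (chr5:147726012-147726261, minus strand): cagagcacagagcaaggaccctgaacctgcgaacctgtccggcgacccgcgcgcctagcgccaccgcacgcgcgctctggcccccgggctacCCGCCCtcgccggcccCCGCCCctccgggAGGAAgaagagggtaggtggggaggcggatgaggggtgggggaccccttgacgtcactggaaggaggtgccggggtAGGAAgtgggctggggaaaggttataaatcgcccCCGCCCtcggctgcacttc
Tek (chr4:94739039-94739288, plus strand): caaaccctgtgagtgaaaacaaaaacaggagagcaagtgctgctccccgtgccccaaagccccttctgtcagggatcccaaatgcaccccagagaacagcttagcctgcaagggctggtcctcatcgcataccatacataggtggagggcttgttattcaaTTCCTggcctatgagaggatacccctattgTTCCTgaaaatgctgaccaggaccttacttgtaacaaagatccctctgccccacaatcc
Vegfc (chr8:54077282-54077531, plus strand): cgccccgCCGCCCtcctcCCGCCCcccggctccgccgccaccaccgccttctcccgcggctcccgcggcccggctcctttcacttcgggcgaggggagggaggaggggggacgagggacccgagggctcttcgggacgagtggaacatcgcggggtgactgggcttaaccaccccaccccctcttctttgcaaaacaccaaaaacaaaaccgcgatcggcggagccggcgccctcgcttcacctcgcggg
The Kdr and Vegfc windows each held 2 GC boxes and no ETS core. The Flt1 window held 3 GC boxes and 2 ETS cores, and the Tek window held 2 ETS cores and no GC box. Of 32851 such windows of all annotated starts, 60.3% held an ETS core and 32.7% a GC box, so these matches are common and only describe the letters.

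Counts are UMIs, each standing for 1 captured RNA molecule tagged near its 3' end. The running, untreated and sedentary libraries held 3260, 4376 and 4079 barcodes with medians of 1518, 1582 and 1122 UMIs, and 3212, 4326 and 4016 cells were kept. Between 20 and 32 barcodes were shared by any pair of libraries, at most 0.785% of the smaller library. Cells were clustered without the members and classes were named from markers that include no member. The capillary-like class held 1951 running, 2067 untreated and 2594 sedentary cells, the artery-like class 832, 1483 and 1029, the vein-like class 226, 592 and 237, and the lymphatic-like class 44, 27 and 10. All 11 general endothelial markers were detected in the capillary-like cells of every library, and Ptprc, which encodes CD45, was at 0 there in all 3 libraries. Of 9 leukocyte markers, Ptprc among them, 4, 2 and 5 were detected in running, untreated and sedentary capillary-like cells. In artery-like cells 7, 2 and 0 were detected, and Ptprc was among those of the running library. Their UMIs, as CPM defined below, summed to 4.37, 0.62 and 2.95 in capillary-like, 35.9, 1.81 and 0 in artery-like and 37.0, 9.81 and 1.69 in vein-like cells. Values are given as CPM, the UMIs of a gene scaled by the total UMIs of a class in a library. CPM from 3' tags are not divided by transcript length, and levels are compared between cells for a given gene. A log2 ratio has a prior count of 0.5 and an exact 95% interval. A gene was read as higher or lower when its log2 ratio was at least 0.322 from 0 and it had at least 50 UMIs over both sets of cells compared, which is called the fold limit below.

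**Figure D1:**
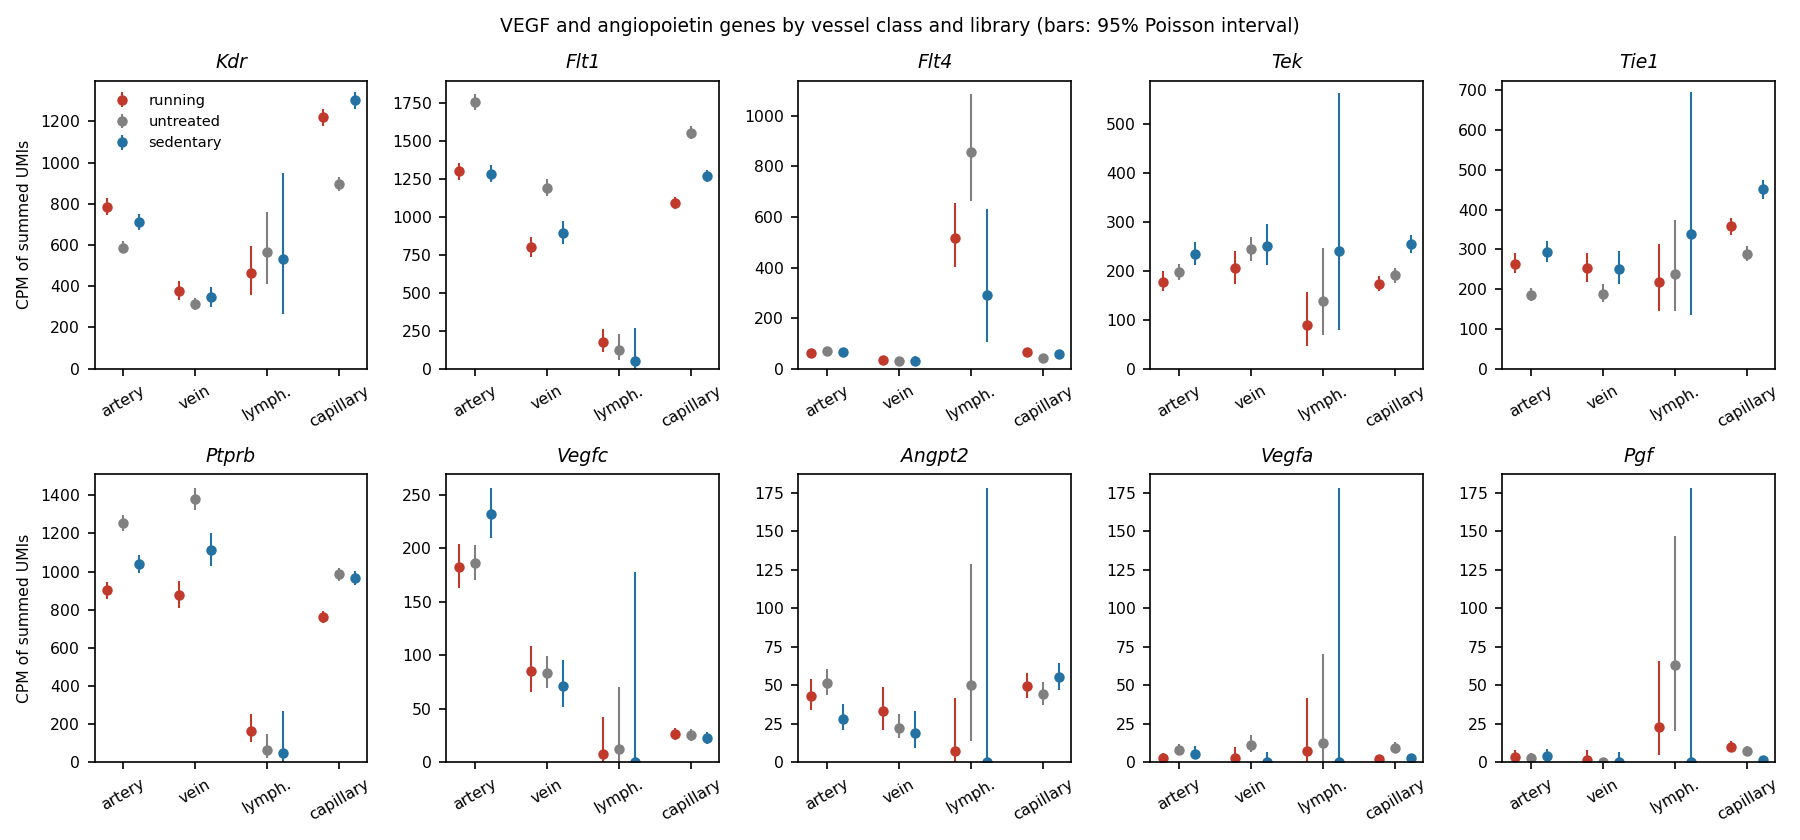
CPM of each of the 10 genes (vertical axes, each on its own scale) in artery-like, vein-like, lymphatic-like and capillary-like cells, with running, untreated and sedentary libraries as red, grey and blue points and exact 95% Poisson intervals as bars. Vegfc is highest in artery-like cells, Flt4 in lymphatic-like cells and Kdr in capillary-like cells, in all 3 libraries.

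Among the ligand genes Vegfc differed between vessel classes in the same direction in all 3 libraries. Vegfc, the gene for the VEGFR3 ligand VEGF-C, was highest in artery-like cells. It had 182, 186 and 232 CPM in the running, untreated and sedentary artery-like cells, 85.0, 83.0 and 71.0 CPM in the vein-like cells, and 25.9, 24.9 and 22.3 CPM in the capillary-like cells. The 3 classes kept this order in every library, with no overlap of the intervals between classes, as the plot of levels by class shows. The artery over capillary log2 ratio was 2.81 in the running (95% interval 2.45 to 3.20), 2.90 in the untreated (2.56 to 3.26) and 3.37 in the sedentary library (3.01 to 3.77). Artery-like cells held 68.9%, 71.1% and 77.5% of the Vegfc UMIs of endothelial-like cells in these libraries, against 30.0%, 35.8% and 30.6% of all their UMIs. After each cell was thinned to 1000 UMIs, a Vegfc UMI was found in 13.5%, 15.3% and 17.2% of artery-like cells, against 2.38%, 2.58% and 2.21% of capillary-like cells. Without thinning the shares were 22.8%, 22.2% and 24.2% of artery-like cells and 3.33%, 3.53% and 2.54% of capillary-like cells. Free RNA can give UMIs in cells that do not express a gene, and in the cells led by fibroblast and mural genes the share was 2.56% (of 39 running cells), 2.33% (of 43 untreated) and 0 (of 11 sedentary) after thinning, with median depths of 3110, 2697 and 1778 UMIs before it. The capillary-like share lies near that level and is not read as expression here, nor as its absence. With so few cells, and with Vegfc expression in them not excluded, the comparison cannot separate capillary-like expression from free RNA. Vegfc was at 1, 1 and 0 UMIs in the few lymphatic-like cells, where 3 UMIs would be 22.5, 37.8 and 145 CPM.

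Angpt2 encodes angiopoietin-2, a ligand that in many settings blocks TIE2 activation and is made by endothelial cells themselves. It had 43.0, 51.4 and 28.3 CPM in running, untreated and sedentary artery-like cells, 32.9, 22.2 and 18.6 CPM in vein-like cells, and 49.4, 43.9 and 55.1 CPM in capillary-like cells. The capillary-like intervals of the 3 libraries overlapped. The vein-like values were the lowest of the 3 classes in every library, and the vein over capillary log2 ratio was -0.56 in the running (-1.27 to 0.04), -0.97 in the untreated (-1.57 to -0.43) and -1.51 in the sedentary library (-2.60 to -0.69). The running vein-like value rests on 24 UMIs, and its ratio to capillary-like cells was 0.18 after thinning to 1000 UMIs. Angpt2 lies at chr8:18690263-18741562 on the minus strand of GRCm38, and Mcph1 overlaps it on the plus strand. The strand setting of the counting is not given in the sources used here, so reads of the 2 genes cannot be told apart with certainty.

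Vegfa and Pgf were near the lower end of detection in these sorted cells. Vegfa, the main ligand of VEGFR2, had 6, 29 and 8 UMIs in running, untreated and sedentary capillary-like cells, or 2.02, 9.03 and 2.62 CPM. It had 4, 22 and 9 UMIs in artery-like cells and 2, 17 and 0 in vein-like cells, where 3 UMIs would be 5.07 CPM in the sedentary library. The untreated library was thus the highest in all 3 classes, and its capillary over sedentary log2 ratio was 1.72 (0.62 to 3.12), on fewer than the 50 UMIs set for a call. Artery-like cluster 12, led by Mgp, Cytl1 and Gkn3, stood apart in this respect. Its 9 running, 50 untreated and 7 sedentary cells held 1, 6 and 1 Vegfa UMIs, or 55.4, 58.5 and 83.9 CPM, while the other artery-like clusters lay at 1.52 to 6.80 CPM. The untreated interval of cluster 12 (21.5 to 127 CPM) did not overlap that of untreated cluster 1 (3.72 to 11.4 CPM).

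Pgf encodes placental growth factor, a ligand of VEGFR1 but not of VEGFR2. It had 29, 23 and 5 UMIs in running, untreated and sedentary capillary-like cells, or 9.74, 7.165 and 1.64 CPM. These came from 21, 14 and 3 cells, with up to 6, 4 and 3 UMIs in a single cell. The sedentary library was the low one, and its interval (0.532 to 3.82 CPM) overlapped neither that of the running library (6.52 to 14.0) nor that of the untreated library (4.54 to 10.8). The running over sedentary log2 ratio was 2.46 (1.19 to 4.30), on 34 UMIs in all and therefore under the minimum. Pgf was also present in the cells led by fibroblast and mural genes, at 82.6, 27.6 and 0 CPM, from 11, 4 and 0 UMIs. The summed level of 8 pericyte markers in capillary-like cells was 191, 175 and 137 CPM, with 8, 6 and 6 markers detected and Cspg4 at 0 in the untreated and sedentary libraries. Pgf was also among the 10 leading genes of an unnamed endothelial cluster, with Apln first, in some alternative clusterings. These used a higher Leiden resolution, allowed the members, or left out stress genes. Pgf led no cluster in this way in the main clustering, at the lower Leiden resolution or with each library clustered alone. The parts of mural RNA and of such endothelial cells in the Pgf difference were not tested. After cells with any muscle fibre, mural or erythrocyte marker UMI (marker-UMI cells below) were left out, the Pgf log2 ratio was 1.29. That filter kept 544 of 1951 running and 800 of 2594 sedentary capillary-like cells, so fewer than the 34 Pgf UMIs can remain. It removes cells for other markers than mural ones too, so the ratio does not measure the part of mural RNA.

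The receptor genes followed a different pattern, with Kdr graded from capillary to vein. Kdr had 785, 588 and 710.3 CPM in running, untreated and sedentary artery-like cells, 376, 314 and 346 CPM in vein-like cells, and 1219, 894 and 1302 CPM in capillary-like cells. The class order was capillary, artery, vein in each library, and no interval overlapped between these classes within a library. The vein over capillary log2 ratio was -1.69 in the running (-1.88 to -1.52), -1.51 in the untreated (-1.65 to -1.37) and -1.91 in the sedentary library (-2.12 to -1.71). The artery over capillary ratio was -0.63, -0.60 and -0.87 in the same libraries. Lymphatic-like cells had 465, 566 and 531 CPM, with intervals that reached the vein-like level in the running and sedentary libraries. Artery-like cluster 12 had the least Kdr of the artery-like clusters, at 55.4, 78.0 and 168 CPM from 1, 8 and 2 UMIs. Clusters 1 and 5 lay between 568 and 829 CPM.

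**Figure D2:**
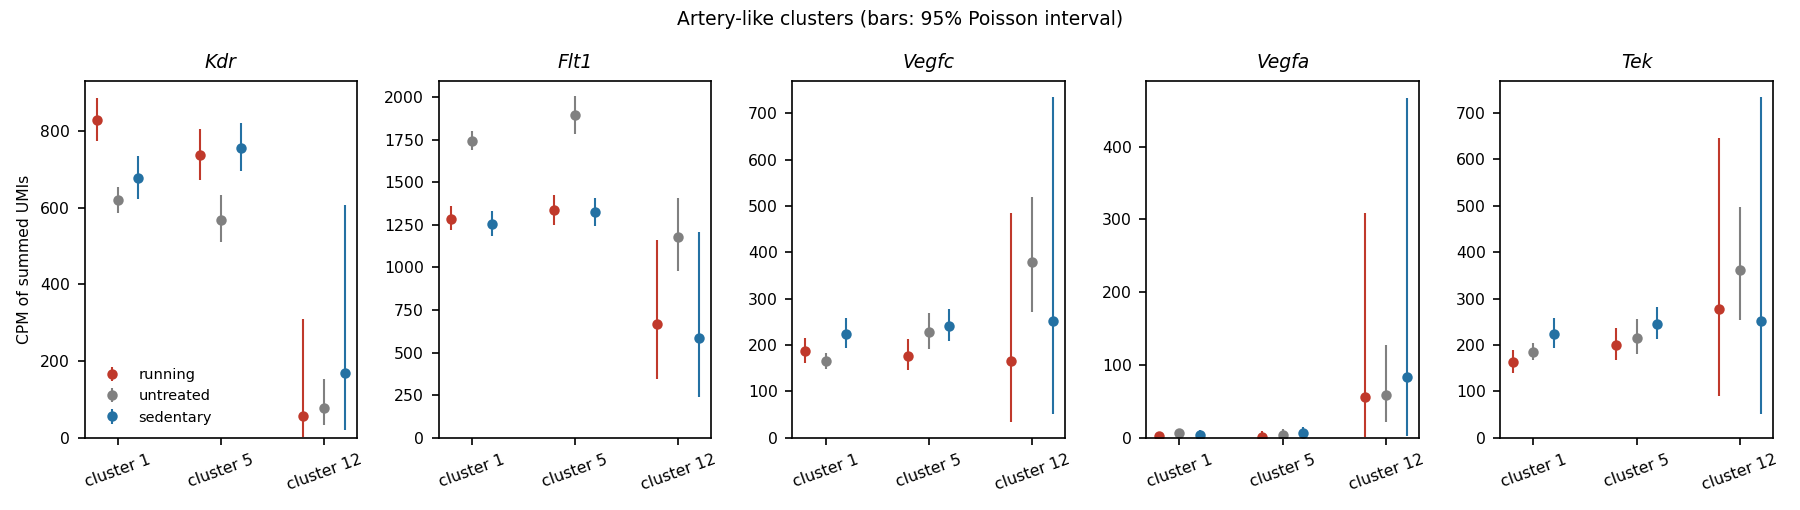
CPM (vertical axes) of Kdr, Flt1, Vegfc, Vegfa and Tek in the 3 artery-like clusters, with running, untreated and sedentary libraries as red, grey and blue points and exact 95% Poisson intervals as bars. Cluster 12 has Kdr at 55.4, 78.0 and 168 CPM and wide intervals, since it holds 9, 50 and 7 cells.

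The plot of artery-like clusters shows that cluster 12 was not low for every member. Tek had 277, 361 and 252 CPM there in the running, untreated and sedentary libraries, and Ptprb had 1274, 1520 and 1342 CPM. Vegfc reached 380 CPM in the untreated cells of cluster 12 (270.3 to 520 CPM), above untreated cluster 1 at 165 CPM (147 to 183). Angpt2 had 1 UMI in the untreated cells of this cluster and 0 in the running and sedentary cells, where the small number of cells sets wide limits.

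Flt1, the VEGFR1 gene, had 1299, 1755 and 1284 CPM in running, untreated and sedentary artery-like cells, 798, 1191 and 892 CPM in vein-like cells, and 1091, 1554.5 and 1270.4 CPM in capillary-like cells. The untreated library was the highest in each of these classes. Vein-like cells were below capillary-like cells by log2 ratios of -0.45, -0.38 and -0.51 in the running, untreated and sedentary libraries. Lymphatic-like cells had much less Flt1, at 173, 126 and 48.3 CPM from 23, 10 and 1 UMIs, and the lymphatic over capillary log2 ratios were -2.63, -3.56 and -4.13. Flt1 and Kdr thus differed in their order, since artery-like cells had no less Flt1 than capillary-like cells (log2 ratios 0.25, 0.18 and 0.02).

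Flt4, the VEGFR3 gene, marked the lymphatic-like cells, although it was in no marker list. It had 518, 856 and 289.6 CPM in running, untreated and sedentary lymphatic-like cells, from 69, 68 and 6 UMIs, and 67.9, 42.4 and 59.7 CPM in capillary-like cells. The lymphatic over capillary log2 ratio was 2.94 in the running (2.52 to 3.33), 4.34 in the untreated (3.89 to 4.77) and 2.39 in the sedentary library (0.81 to 3.43). Artery-like cells had 61.8, 68.8 and 67.4 CPM and vein-like cells 34.3, 30.1 and 32.1 CPM, so blood vessel cells also held Flt4 UMIs. Lymphatic-like cells gave 17.0%, 14.9% and 1.85% of the Flt4 UMIs of endothelial-like cells, and most of the gene's UMIs came from blood vessel classes. The summed level of 8 lymphatic markers in capillary-like cells was 101, 7.79 and 17.0 CPM, with 7, 8 and 7 markers detected, Pdpn at 0 in the running library and Fgl2 at 0 in the sedentary library. The lymphatic markers were highest in the running library, whose capillary-like Flt4 value was also the highest, and the part of lymphatic RNA in that value was not tested.

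Tek, the TIE2 gene, differed little between blood vessel classes. It had 178, 198 and 234 CPM in running, untreated and sedentary artery-like cells, 206, 244 and 252 CPM in vein-like cells, and 174, 191 and 255 CPM in capillary-like cells. The sedentary library was the highest in each class. The artery over capillary log2 ratios of 0.04, 0.05 and -0.13 had intervals that included 0, and the vein over capillary ratio excluded 0 only in the untreated library (0.35, 0.16 to 0.54).

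Tie1, the gene of the partner receptor TIE1, was higher in capillary-like cells. It had 264, 186 and 294 CPM in running, untreated and sedentary artery-like cells, 252, 189 and 252 CPM in vein-like cells, and 358, 288 and 451 CPM in capillary-like cells. Capillary-like intervals lay above those of artery-like and vein-like cells in each library. Ptprb, the VE-PTP gene, had 878, 1379 and 1112 CPM in vein-like cells, against 761, 986 and 966 CPM in capillary-like cells. Its vein over capillary log2 ratio was 0.21 in the running, 0.48 in the untreated and 0.20 in the sedentary library, so that only the untreated one was past the fold limit, and the running one was -0.14 without marker-UMI cells. Artery-like cells had 901, 1257 and 1039 CPM of Ptprb, and lymphatic-like cells 165, 62.9 and 48.3 CPM from 22, 5 and 1 UMIs.

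Read as a group, 1 of 8 members with enough UMIs was past the fold limit and higher in artery-like than capillary-like cells in each of the 3 libraries (Vegfc), where the share was 6.07% of all 7973 genes. In the other direction 2 of 8 were lower (Kdr and Tie1), against 8.00% of all genes, and 14.1% of genes were past the limit in either direction. In vein-like cells 1 of 8 was higher (Vegfc), against 7.06% of 7278 genes, and 5 were lower (Kdr, Flt1, Flt4, Tie1 and Angpt2), against 15.5%, with 22.6% in either direction. The classes were drawn from the same cells, so these are descriptions. Leaving out all cells with a muscle fibre, mural or erythrocyte marker UMI turned the running vein over capillary ratio of Flt4 to 0.79. Thinning turned the sedentary one to 0.16, so the Flt4 call was the least stable of the vein calls. Before these changes the vein-like Flt4 values rested on 25, 46 and 19 UMIs in the running, untreated and sedentary libraries.

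The comparison of the running with the sedentary library asked how the members differ in muscle endothelium after voluntary exercise. In capillary-like cells Tek, Tie1 and Ptprb, the genes of TIE2, its partner receptor and its phosphatase, were lower in the running library. Tek had 174 CPM in running cells and 255 CPM in sedentary cells, a log2 ratio of -0.55 (-0.72 to -0.39). Tie1 had 358 CPM in running cells and 451 CPM in sedentary cells (-0.33, -0.45 to -0.22), and Ptprb had 761 and 966 CPM (-0.34, -0.42 to -0.26). These 3 of 8 members were past the fold limit, against 14.3% of 9034 genes lower by as much, while 0 of 8 were higher, against 11.4%. In either direction 25.6% of genes were past it. Kdr and Flt1 differed less, with ratios of -0.09 (-0.16 to -0.03) and -0.22 (-0.29 to -0.15). Flt4 (0.19, -0.11 to 0.48), Vegfc (0.21, -0.27 to 0.71) and Angpt2 (-0.16, -0.49 to 0.17) had intervals that included 0. The Vegfc ratio was -0.99 in capillary-like cluster 6 and 0.50 without it.

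**Figure D3:**
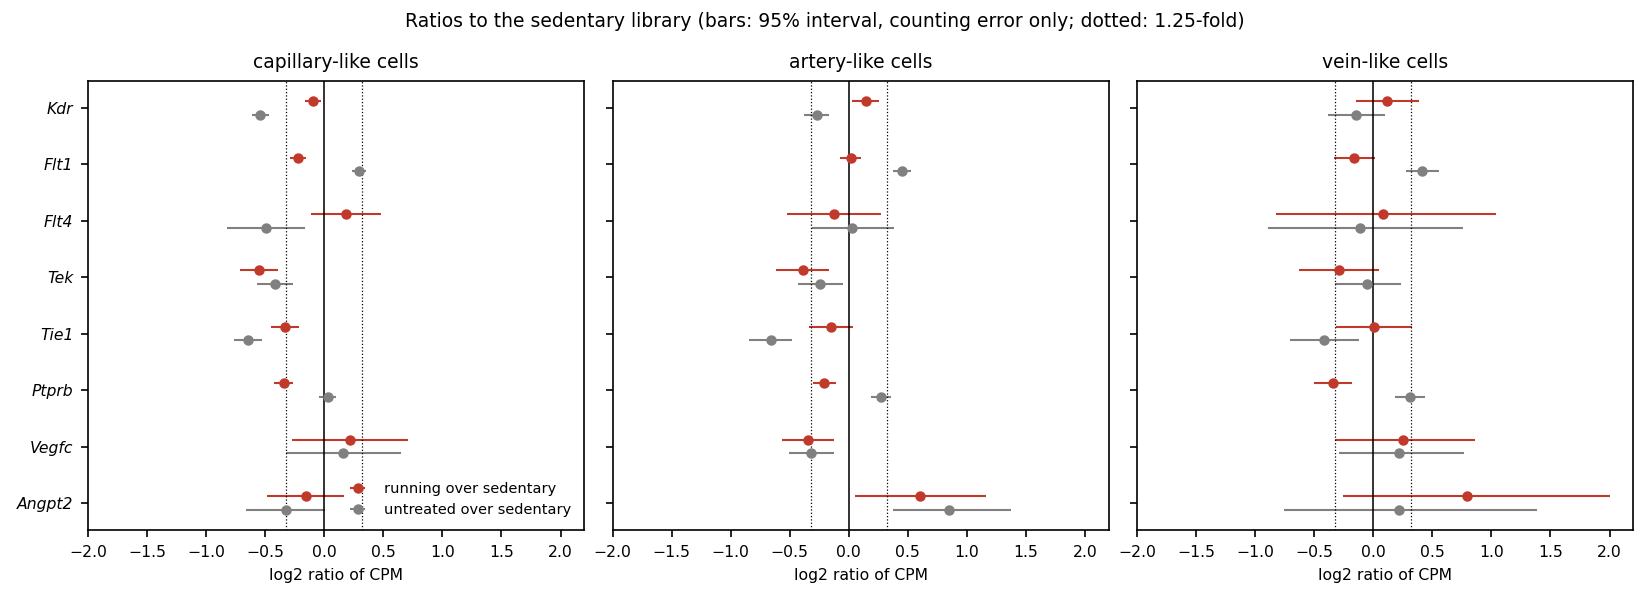
Log2 ratios of CPM (horizontal axes) for 8 members in capillary-like, artery-like and vein-like cells, with running over sedentary in red and untreated over sedentary in grey. Bars are 95% intervals for counting error and dotted lines mark the fold limit. Capillary-like Tek, Tie1 and Ptprb lie at -0.55, -0.33 and -0.34 in red, and Tie1 is below 0 in grey in all 3 classes.

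The lower values differed in size between the capillary-like clusters, and the libraries held these clusters in different shares. The part of these shares in the differences was not tested. Cluster 6, with a median of 791 UMIs per cell, made up 35.3% of running, 35.1% of untreated and 57.0% of sedentary capillary-like cells, and cluster 2 made up 45.3%, 60.2% and 23.7%. Cluster 6 had the highest Tek of the 3 clusters, at 246 CPM in running and 348 CPM in sedentary cells, and the highest Tie1, at 541 and 611 CPM. Within clusters the running over sedentary log2 ratio of Tek was -0.76 in cluster 0, -0.19 in cluster 2 and -0.50 in cluster 6. The ratio of Tie1 was -0.10, -0.27 and -0.17 in these clusters, and that of Ptprb was -0.29, -0.28 and -0.32. All 9 of these ratios were below 0, and those of Tie1 and Ptprb were each within the fold limit. With cluster 6 left out, a choice made after seeing the data, Tek was at -0.38, Tie1 at -0.22 and Ptprb at -0.25, so that only Tek was past the fold limit among the lower ones. Flt4 (0.56) then passed it in the other direction, as did Vegfc (0.50), whose capillary-like UMIs could not be told apart from free RNA. Kdr, at 0.18, was on the other side of 0.

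**Figure D4:**
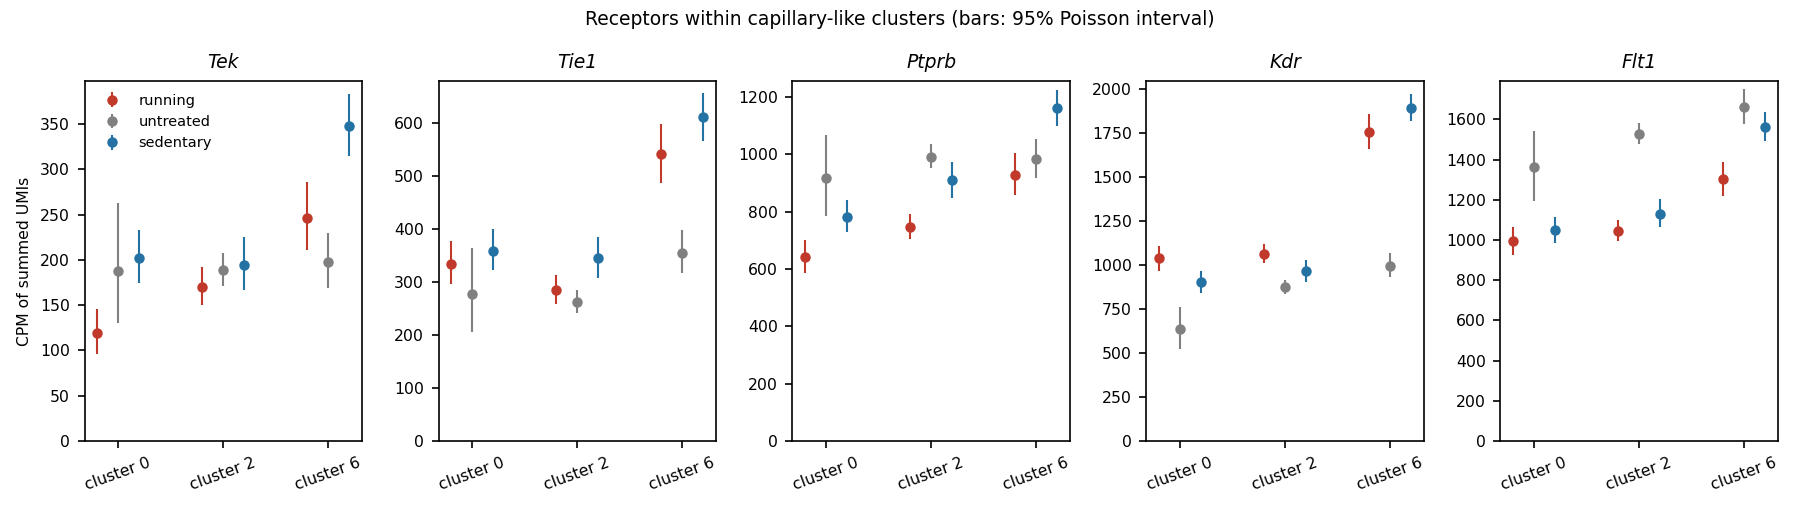
CPM (vertical axes) of Tek, Tie1, Ptprb, Kdr and Flt1 in capillary-like clusters 0, 2 and 6, with running, untreated and sedentary libraries as red, grey and blue points and exact 95% Poisson intervals as bars. Running lies below sedentary for Tek, Tie1, Ptprb and Flt1 in each cluster, and above it for Kdr in clusters 0 and 2.

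The plot of capillary-like clusters also shows Kdr at 1760 CPM in running and 1896 CPM in sedentary cells of cluster 6, against 1038 and 903 CPM in cluster 0 and 1064 and 965 CPM in cluster 2. The direction of the Kdr difference therefore changed with the cluster. The median depth of capillary-like cells was 1291, 1428 and 888 UMIs in the running, untreated and sedentary libraries, and its part in these differences was not tested beyond the thinned values. After thinning every cell to 1000 UMIs, Tek was at -0.52, Tie1 at -0.26 and Ptprb at -0.26, and Kdr was at 0.16, on the other side of 0.

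In artery-like cells 2 of 8 members were lower in the running library, against 13.2% of 7238 genes, and 1 was higher, against 12.5%, with 25.7% in either direction. Tek had 178 CPM in running cells and 234 CPM in sedentary cells (-0.39, -0.61 to -0.17), and Vegfc had 182 and 232 CPM (-0.35, -0.57 to -0.13). Angpt2 was the higher one, with 43.0 CPM in running cells and 28.3 CPM in sedentary cells (0.60, 0.06 to 1.16), from 73 and 47 UMIs. Both lower values were near the fold limit, and both were smaller when the classes were drawn another way, Vegfc at -0.18 and Tek at -0.25 with the members allowed among the clustering genes. In vein-like cells 1 of 6 members was lower, Ptprb with 878 CPM in running cells and 1112 CPM in sedentary cells (-0.34, -0.50 to -0.18), against 17.5% of 3981 genes, and 0 of 6 were higher, against 15.3%, with 32.8% in either direction. Ptprb was below 0 in all 3 blood vessel classes, with -0.21 (-0.31 to -0.11) in artery-like cells. Tek in vein-like cells was at -0.29 (-0.63 to 0.05), and Tie1 at 0.00 (-0.32 to 0.32). The difference between classes was not tested.

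With 1 library per group, group and batch cannot be told apart in any comparison of libraries, running over sedentary included. The untreated library is set beside the others with a further limit, since its housing is not given either. Against it, running capillary-like cells had more Kdr (0.45, 0.38 to 0.52) and Flt4 (0.68, 0.36 to 1.00) and less Flt1 (-0.51, -0.57 to -0.45) and Ptprb (-0.37, -0.45 to -0.30). With Pgf (0.44, -0.40 to 1.30), 3 of 9 members were higher, against 30.1% of 8987 genes, and 2 were lower, against 17.0%, with 47.1% in either direction. Tek, by contrast, was at -0.13 (-0.31 to 0.04), so the lower Tek of the running library relative to the sedentary one was not seen to the same size against the untreated library. The 2 comparisons share the running library. In artery-like cells 2 of 8 members were higher in the running than in the untreated library (Kdr and Tie1), against 25.1% of 8010 genes, and 2 were lower (Flt1 and Ptprb), against 19.0%, with 44.1% in either direction. Vein-like cells had 2 higher (Tie1 and Angpt2), against 25.5% of 5721 genes, and 2 lower (Flt1 and Ptprb), against 24.3%, with 49.8% in either direction. Flt1 and Ptprb were thus lower in all 3 classes, and Tie1 was just within the limit in capillary-like cells at 0.31 (0.18 to 0.44).

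Untreated capillary-like cells had less Kdr (-0.54, -0.61 to -0.47), Flt4 (-0.49), Tek (-0.42), Tie1 (-0.65, -0.77 to -0.52) and Angpt2 (-0.33, -0.66 to 0.01) than sedentary ones. These were 5 of 8 members lower, against 31.7% of 9019 genes, though the Angpt2 interval includes 0 and its ratio was 0.44 after thinning to 1000 UMIs. In the other direction 0 of 8 were higher, against 16.4%, with 48.0% in either direction. Tie1 was also lower in untreated artery-like (-0.66, -0.84 to -0.48) and vein-like cells (-0.42, -0.70 to -0.12), and Flt1 was higher in both (0.45 and 0.42). The artery-like count was 2 higher (Flt1 and Angpt2), against 19.3% of 7958 genes, and 1 lower, against 25.1%, with 44.4% in either direction. The vein-like count was 1 higher, against 27.1% of 5493 genes, and 1 lower, against 28.9%, with 56.0% in either direction. The scaling matters in capillary-like cells, where all genes together had a median ratio of 0.10 in running over untreated cells and of -0.12 in untreated over sedentary cells. TMM scaling, which sets the bulk of genes level, put these medians at -0.02 and 0.00. Under TMM, 2 members were higher than untreated in running cells (Kdr and Flt4) and 2 lower (Flt1 and Ptprb), with 46.6% of all calls in the higher direction, against 63.9% by total UMIs. For untreated over sedentary, 1 of 8 members was then higher (Flt1, 0.41), against 23.2% of all genes. The 3 lower ones (Kdr, Flt4 and Tie1) stood against 22.7%. Of all calls, 50.6% were in the higher direction, against 34.1%. In artery-like cells TMM added Angpt2 (-0.34) to the lower members of running over untreated, then 3 of 8, against 24.6% of all genes. The 2 higher members stood against 18.4%, with 42.8% of calls higher, against 56.9% by total UMIs. That Angpt2 ratio was 1.10 without marker-UMI cells. TMM also added Ptprb to the higher members of untreated over sedentary in artery-like cells, with 54.9% of calls higher, against 43.5%, and in vein-like cells, with 55.0%, against 48.4%. The erythrocyte markers in capillary-like cells summed to 680 CPM in running, 84.4 CPM in untreated and 990.2 CPM in sedentary cells, and their part in these differences was not tested.

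The other genes of the pathway came from 7 lists with 88 genes, of which 69 had at least 50 UMIs in running and sedentary capillary-like cells. In the running library 11 were higher and 13 lower by the fold limit, with a median log2 ratio of -0.06, against -0.01 for all genes. As shares of the 69 genes these were 15.9% and 18.8%, beside 11.4% and 14.3% of all genes. Of the 11 higher genes, 7 were on the list of genes known to be induced by VEGF, and differences between lists were not tested. The lists were chosen with earlier results of these data known, so their counts here and below are descriptions only.

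**Figure D5:**
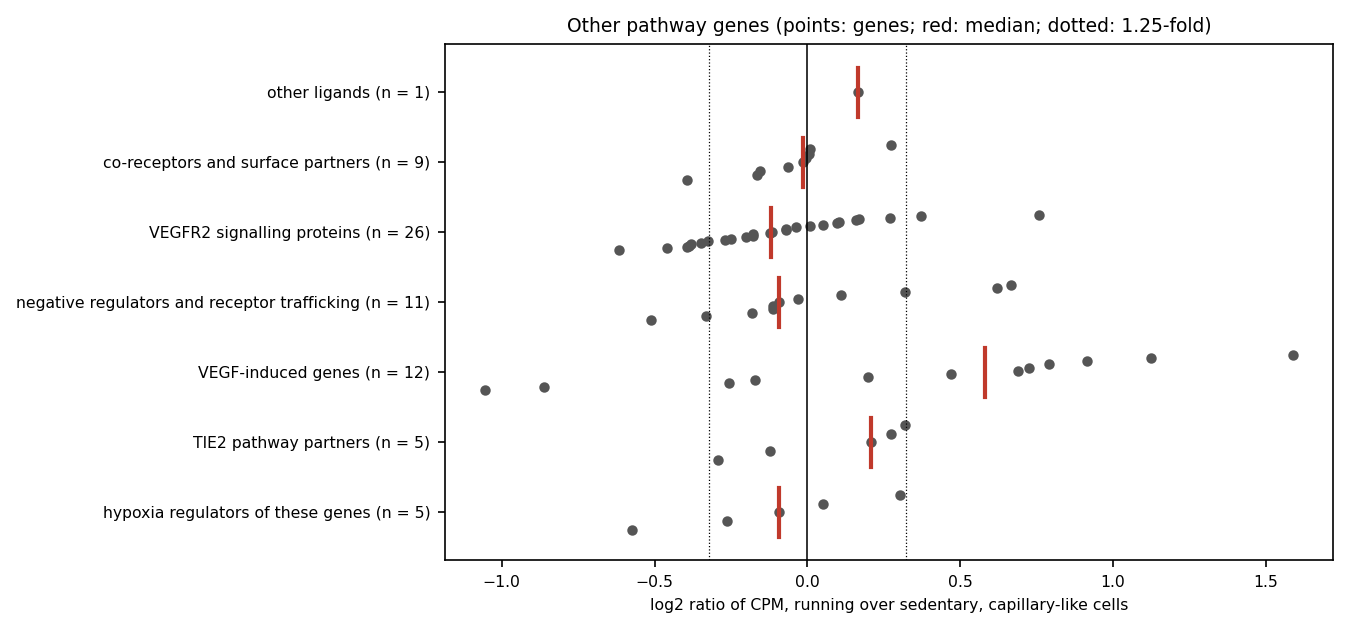
Log2 ratio of CPM, running over sedentary, in capillary-like cells (horizontal axis) for each measured gene of 7 lists. Points are genes, red bars are list medians and dotted lines mark the fold limit. The VEGF-induced genes have the highest median, 0.58, and also the lowest gene, Esm1 at -1.05.

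Of 12 VEGF-induced genes, 7 were higher in the running library (Rcan1, Egr3, Nr4a2, Adamts1, Plaur, Hbegf and Dusp5) and 2 were lower (Esm1 and Cxcr4), with a median of 0.58, beside 11.4% of all genes higher and 14.3% lower. Egr3, an early response transcription factor gene, had 29.9, 11.5 and 9.83 CPM in running, untreated and sedentary capillary-like cells, with a running over sedentary ratio of 1.59 (0.99 to 2.25). Esm1, which encodes endocan and is known from sprouting endothelium, had 9.07, 6.85 and 19.0 CPM (-1.05, -1.78 to -0.39). Genes of this list therefore went both ways. A list of 15 early response and tissue dissociation genes, which shares 1 gene with the VEGF-induced list, summed to 12438, 12647 and 7510 CPM in running, untreated and sedentary capillary-like cells, with 15 of 15 detected in each library. Its part in the higher values was not tested.

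Of 26 measured VEGFR2 signalling genes, 2 were higher (Fyn and Gab1) and 7 were lower (Plcg1, Nck2, Akt1, Map2k1, Mapk3, Hspb1 and Ppp3ca), beside 11.4% and 14.3% of all genes, with a median of -0.12. Gab1, an adaptor gene, was the highest at 0.76 (0.19 to 1.36), and Nck2, another adaptor gene, the lowest at -0.62 (-1.06 to -0.18). The list of negative regulators and receptor trafficking genes had 11 measured genes, with 2 higher (Spry4 and Dusp6) and 2 lower (Dab2 and Efnb2). The highest was Spry4, a feedback inhibitor gene of MAP kinase signalling, at 0.67 (0.21 to 1.13). The lowest was Efnb2, the ephrin-B2 gene, at -0.51 (-0.75 to -0.28). Of 9 co-receptors and surface partners only the integrin gene Itga5 was past the fold limit (-0.39, -0.68 to -0.11), and the highest was the neuropilin gene Nrp2 at 0.27. Nrp2 had 215, 536 and 178 CPM in running, untreated and sedentary cells, and the untreated library was far above the others. Among 5 hypoxia regulators Epas1, the HIF-2α gene, had 567, 837 and 844 CPM (-0.57, -0.66 to -0.48), and Hif1a was the highest at 0.30. None of 5 TIE2 pathway partners was past the fold limit, the range running from Tnip2 at -0.29 to Foxo3 at 0.32. Of 5 other ligands only Apln, the apelin gene, had enough UMIs (0.17, -0.31 to 0.65).

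Genes with the most similar pattern were looked for among 4991 genes by Pearson's r of log2(CPM + 10) over 9 points, the 3 blood vessel classes in the 3 libraries, which share libraries and depth. The closest gene to Kdr was Art3 (r = 0.99), followed by Eepd1 and Aldh3a2 (both 0.98). Flt1 was closest to Ceacam1, Klf13 and Klhl24 (each 0.97), and Vegfc to Fbln5, Igfbp4 and Stc1 (each 0.97). Flt4 was closest to Kctd12b and the Notch ligand gene Dll4 (both 0.97) and to Prkar1a (0.96). Tie1 was closest to Ctbp1, Ttf1 and Tecpr1 (each 0.97), Angpt2 to Arfrp1 (0.95), Rnf215 and Chrac1 (both 0.93), and Ptprb to Heg1 (0.95), Nfe2l1 (0.93) and Gpr146 (0.90). Tek had the least similar neighbours, with Wdr89, Rab21 and Ftl1-ps1 at 0.89 each. With so few points and so many genes, these values describe the levels only.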

How the data were processed

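The deposited files held raw counts, UMIs per gene and barcode. Per the labels' protocols they came from the 10x Chromium 3' kit, version 2, and per the submitters' processing notes from Cell Ranger 2.0.2 on GRCm38.p5. The annotation release and the cell calling are not given in the sources used here. Barcodes with at least 300 genes and at most 10% mitochondrial UMIs were kept. Scrublet marked 0 of 11554 cells, so doublets remain among them. Cells were clustered with scanpy 1.11.5 on 2000 variable genes without the members (30 components, 15 neighbours, Leiden resolution 1.0), and clusters were named from marker lists. UMIs were summed per class and library. Ratios carry exact conditional binomial intervals, CPM exact Poisson intervals. The alternative TMM scaling used edgeR 4.0.16. The ratio intervals were checked on simulated independent Poisson counts. That setting leaves out the grouping of UMIs within cells and any spread between libraries. Positions came from GENCODE M21 (GRCm38). The members and lists were chosen with earlier results of these data known. Named were all 10 members, the highest and lowest gene of each pathway list by running over sedentary ratio, and the 3 genes most like each member with at least 500 UMIs. Other genes called in those lists were named after their values were seen. Alternatives changed the scaling, thresholds, depth, clustering and cells.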

Additional observations from a re-analysis of the deposited data

Results flagged for a closer look

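Angpt2, the angiopoietin-2 gene, had opposite directions in 2 vessel classes when the untreated library was set against the sedentary one. The untreated over sedentary log2 ratio was 0.85 (0.38 to 1.37) in artery-like cells, from 142 and 47 UMIs, and -0.33 (-0.66 to 0.01) in capillary-like cells, from 141 and 168 UMIs. It was singled out because the 2 classes moved opposite ways under the same contrast, and each class has 1 library per group, so the difference was not tested. The capillary-like interval includes 0. The pattern was lost in 2 alternatives: the capillary-like ratio was 0.44 after thinning to 1000 UMIs, and the artery-like ratio was -0.19 after cells with a muscle fibre, mural or erythrocyte marker UMI were left out.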

How the results depend on the processing

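No paired analysis was possible because each group has 1 library. The lower Tek, Tie1 and Ptprb ratios of running over sedentary capillary-like cells kept their sign in the 19 alternatives run, with ranges of -0.76 to -0.19, -0.36 to -0.10 and -0.38 to -0.23. Vegfc in artery over capillary cells ranged from 2.23 to 3.35 in the running, 2.72 to 3.12 in the untreated and 3.21 to 3.76 in the sedentary library over 15 alternatives. Some of the alternatives counted here could not alter these ratios. A changed fold limit or UMI minimum alters none of them, and leaving out artery-like cluster 12 alters no ratio within capillary-like cells. Counts of members past the fold limit were less stable. The share of all genes past the limit was not computed under the alternatives listed below. These counts therefore describe the members only and cannot be set against all genes. Leaving out cluster 6 and leaving out artery-like cluster 12 were chosen after seeing the data. In running over sedentary capillary-like cells, the 0 members higher became 1 with a minimum of 20 UMIs, with at least 500 genes per cell, without the highest 5% of doublet scores and in cluster 0 alone, and 2 after thinning, in cluster 2 alone and without cluster 6. The 3 lower became 0 at 1.5-fold and in cluster 2 alone, and 1 after thinning, with at least 500 genes, in cluster 0 alone and without cluster 6. For running over untreated capillary-like cells, 5 members became 1 at 1.5-fold and 3 in cluster 2 alone and without cluster 6. For untreated over sedentary, 5 became 1 at 1.5-fold. In artery-like cells, running over sedentary, 3 became 1 at 1.5-fold, at Leiden resolutions 0.5 and 1.5, with members allowed in the clustering, and without marker-UMI cells. In vein-like cells 1 became 0 at 1.5-fold, and 2 with a minimum of 20 UMIs, without stress genes in the clustering and without the highest doublet scores. In vein over capillary cells 6 became 2 at 1.5-fold, 3 after thinning and 1 without marker-UMI cells. Of 2410 recomputed ratios, 5 that were past the fold limit turned sign: Angpt2 untreated over sedentary, at 0.44 in thinned capillary-like cells and -0.19 in artery-like cells without marker-UMI cells, Angpt2 vein over capillary in the running library (0.18, thinned), and Flt4 vein over capillary in the running (0.79, without marker-UMI cells) and sedentary libraries (0.16, thinned). The 2410 include ratios that an alternative could not alter. Another 136 turned sign from a value within the limit or under the UMI minimum. Without marker-UMI cells these included Angpt2 running over untreated in artery-like cells (1.10) and artery over capillary in the running library (0.76), Ptprb vein over capillary in the running library (-0.14) and Kdr running over sedentary in vein-like cells (-0.88). The cause was not tested, except that a 1.5-fold limit can by construction only leave fewer calls. Thinning and leaving out cells also remove UMIs, so that a member can fall under the UMI minimum and leave the count. The marker filter includes the smooth muscle marker Tagln, which was among the 10 leading genes of vein-like cluster 9. The number of vein-like cells kept by it is not given here. Leaving out marker-UMI cells kept 544 of 1951 running, 1275 of 2067 untreated and 800 of 2594 sedentary capillary-like cells. Vegfa, Pgf and the lymphatic-like cells are limited by depth, with few UMIs behind each value.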

Other observations

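An unnamed endothelial cluster led by Penk and Itm2a, with 36 running, 59 untreated and 42 sedentary cells, held UMIs of all 5 receptor genes. Kdr had 894, 1171 and 1076 CPM there and Flt1 1381, 2013 and 1563 CPM. The Kdr ratio to capillary-like cells was -0.44 in the running, 0.39 in the untreated and -0.27 in the sedentary library, so its direction was not the same in each. The ligand genes had at most 3 UMIs each in a library, too few to compare. Tek had 148, 75.3 and 142 CPM, and its log2 ratio to capillary-like cells was -0.20 (-1.03 to 0.46), -1.28 (-2.35 to -0.49) and -0.80 (-1.72 to -0.09).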
